A study of Mus musculus with 2 samples.

Results

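Maternally methylated imprinting control regions are stretches of DNA that receive cytosine methylation in the oocyte and keep it on the maternal allele in the cells of the offspring, while the paternal allele stays unmethylated. The methylation silences the maternal copy of the gene or non-coding RNA that starts there, so that these transcripts come from the paternal chromosome. Grb10 is an exception in most mouse tissues outside the brain, where the maternal copy is the active one. In adipose tissue such regions are of interest because several of the genes they govern act in growth and in fat storage. The methylated allele is held through early development by ZFP57, a zinc-finger protein that binds the hexamer TGCCGC when its CpG is methylated, together with its partner TRIM28.

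Here 10 such regions were followed: Peg3, Snrpn, Kcnq1ot1, Mest, Peg10, Airn, Impact, Nnat, Plagl1 and Grb10. Each was taken as a fixed window of 12 to 20 kb on the mm9 mouse genome, 171 kb in all, and a methylation peak belonged to a region when it overlapped the window by at least 1 bp. The windows were given by position, and they were chosen with earlier results of these data known. They held 28 of the 175767 nuclear peaks of the high-fat diet library and 30 of the 166432 nuclear peaks of the chow library. Whether each peak of a window lies inside the control region itself was not checked. Peak counts, covered bases and ratios below therefore describe the windows, which can also hold sequence around the control region. How the peaks lie relative to exons and introns was not analysed here.

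The peaks come from MeDIP-seq, in which an antibody against 5-methylcytosine captures methylated DNA fragments for sequencing. The tissue was epididymal white fat, a visceral depot next to the testis, taken from males of the inbred strain C57BL/6J. Mice were 4 weeks old when they were randomised to a high-fat diet with 60% of its energy from fat (HFD) or to standard chow (STD), and both groups ate their diet for 5 months. Each diet is represented by 1 library, and the number of mice behind it is not given in the sources used here. No difference between HFD and STD therefore has a replicate check, no p-value is given, and the deposited lists carry positions only, so the sequencing depth is unknown. The antibody does not separate the maternal from the paternal allele. The width of a peak is not a methylation level. In whole fat, a shift in the mix of cells and a change of methylation within cells cannot be told apart.

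The sequences at the starts of these genes were read for their CpG sites. The RefSeq promoter table (GRCm38.p6, 250 bases before to 50 after each start) held 14 promoter windows for 8 of the 10 genes, and Peg10 and Impact had no entry. Whether each start lies inside its control region was not checked. The listed Snrpn starts lie farther apart than its window is long, so not all of those can lie in it. The peak lists use mm9, another build, so the promoters were not laid over the peaks. Shown here are 6 of them. Peg3 and Kcnq1ot1 had peaks among the broadest of the windows in both libraries, and Nnat had one with HFD only. Plagl1 is a gene whose peak widths differed between the libraries. Also shown are the start of Snrpn richest in CpG and, as the contrast, Mest, whose widest peak was the narrowest of the 10 windows. Capitals mark each CpG, and each promoter is written 5′ to 3′ on the strand of its gene.
Peg3, chr7:6730370-6730669, minus strand: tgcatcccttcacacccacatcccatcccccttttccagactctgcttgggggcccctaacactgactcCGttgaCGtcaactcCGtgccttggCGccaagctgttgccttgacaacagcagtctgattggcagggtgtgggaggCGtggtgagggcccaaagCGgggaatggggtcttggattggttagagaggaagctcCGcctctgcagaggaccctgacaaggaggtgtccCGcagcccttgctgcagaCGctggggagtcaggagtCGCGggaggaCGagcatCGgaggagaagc
Kcnq1ot1, chr7:143296498-143296797, minus strand: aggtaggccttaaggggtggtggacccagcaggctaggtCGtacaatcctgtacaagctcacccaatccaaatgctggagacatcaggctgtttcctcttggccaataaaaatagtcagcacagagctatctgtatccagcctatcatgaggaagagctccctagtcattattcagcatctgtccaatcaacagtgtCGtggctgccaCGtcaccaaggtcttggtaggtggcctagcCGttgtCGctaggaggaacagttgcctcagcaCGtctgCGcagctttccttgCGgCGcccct
Nnat, chr2:157559828-157560127, plus strand: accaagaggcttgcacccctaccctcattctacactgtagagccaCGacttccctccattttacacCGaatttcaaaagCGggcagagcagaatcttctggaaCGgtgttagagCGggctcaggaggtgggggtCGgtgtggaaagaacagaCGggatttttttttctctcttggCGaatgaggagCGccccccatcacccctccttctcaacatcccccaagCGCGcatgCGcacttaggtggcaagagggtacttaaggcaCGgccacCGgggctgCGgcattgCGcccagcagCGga
Plagl1, chr10:13090582-13090881, plus strand: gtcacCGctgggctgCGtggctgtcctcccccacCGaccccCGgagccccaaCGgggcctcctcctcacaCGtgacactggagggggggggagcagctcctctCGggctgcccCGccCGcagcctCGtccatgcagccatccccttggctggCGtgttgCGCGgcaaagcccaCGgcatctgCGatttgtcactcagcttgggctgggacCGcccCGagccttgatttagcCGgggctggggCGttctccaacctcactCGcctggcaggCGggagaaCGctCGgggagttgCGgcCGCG
Snrpn, chr7:60005150-60005449, minus strand: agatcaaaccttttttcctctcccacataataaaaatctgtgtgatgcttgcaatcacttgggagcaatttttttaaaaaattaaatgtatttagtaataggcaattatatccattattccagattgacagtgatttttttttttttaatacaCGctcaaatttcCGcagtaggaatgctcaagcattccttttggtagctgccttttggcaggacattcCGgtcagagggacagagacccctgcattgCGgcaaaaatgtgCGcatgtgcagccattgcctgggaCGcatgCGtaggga
Mest, chr6:30737800-30738099, plus strand: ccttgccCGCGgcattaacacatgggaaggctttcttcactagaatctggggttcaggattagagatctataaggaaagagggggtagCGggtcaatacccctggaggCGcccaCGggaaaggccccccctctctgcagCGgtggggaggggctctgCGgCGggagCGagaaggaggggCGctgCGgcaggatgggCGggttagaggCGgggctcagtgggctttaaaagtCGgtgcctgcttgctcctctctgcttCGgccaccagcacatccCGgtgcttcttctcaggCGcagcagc

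Among these, the Plagl1 promoter had 26 CpG sites in 300 bases, Nnat and Mest 17 each, Peg3 13, Kcnq1ot1 9 and Snrpn 7. The median over all 32851 promoter windows of the table was 7, with quartiles of 3 and 20. The richest of the 14 was a Grb10 start, with 45 CpG, a number reached by 1.93% of all promoter windows. The Airn start had 3. CpG content at the starts of these genes thus ran from below the median of the table to near its top. The hexamer TGCCGC, searched on both strands as TGCCGC and GCGGCA, was present in 6 of the 14 windows, from 5 genes: Snrpn, Mest, Nnat, Plagl1 and Grb10. The 6 include 2 overlapping windows of Mest, which share nearly all their bases and the same hexamers. The hexamer occurred in 11.6% of all promoter windows, and in 20.1% of those with at least 7 CpG, the fewest in a member window that had it. That limit was taken from the member windows with the hexamer, and some of the 14 lie below it. The shares are therefore not matched for CpG content, and whether the hexamer is more frequent in these genes was not tested. Of 7 other genes with a maternally methylated germline region, 5 had an entry, and Nap1l5 and Mcts2 held the hexamer while Zrsr1, Inpp5f and Slc38a4 did not. A match of letters is a description of these 300 bases and does not show binding.

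All 10 windows carried at least 1 methylation peak with HFD and with STD. Mest and Peg10 had the most peaks, 5 with HFD and 5 with STD each, in windows of 20 kb. Per 15 kb this was 3.75 peaks, and the highest values were 4 at Grb10 with HFD and 5 at Nnat with STD. Impact had the fewest HFD peaks (1) and Peg3 the fewest STD peaks (1). Of the autosomal tiles of 15 kb, 50.1% had a peak in both libraries. Each window was also compared with these tiles by the bases that peaks covered, scaled to 15 kb because windows differ in length. The median window had 1180 bp per 15 kb with HFD and 1236 bp with STD, against a median of 280 bp over the 160928 tiles in either library. The tiles were not matched to the windows for CpG content, and their lower quartile was 0 bp in both libraries. All 10 windows were above the upper quartile of the tiles, which was 646 bp for HFD and 639 bp for STD. Kcnq1ot1, Peg10, Nnat and Grb10 were above the 95th percentile with HFD (1283 bp). Kcnq1ot1, Peg10 and Nnat were above it with STD (1290 bp).

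**Figure D1:**
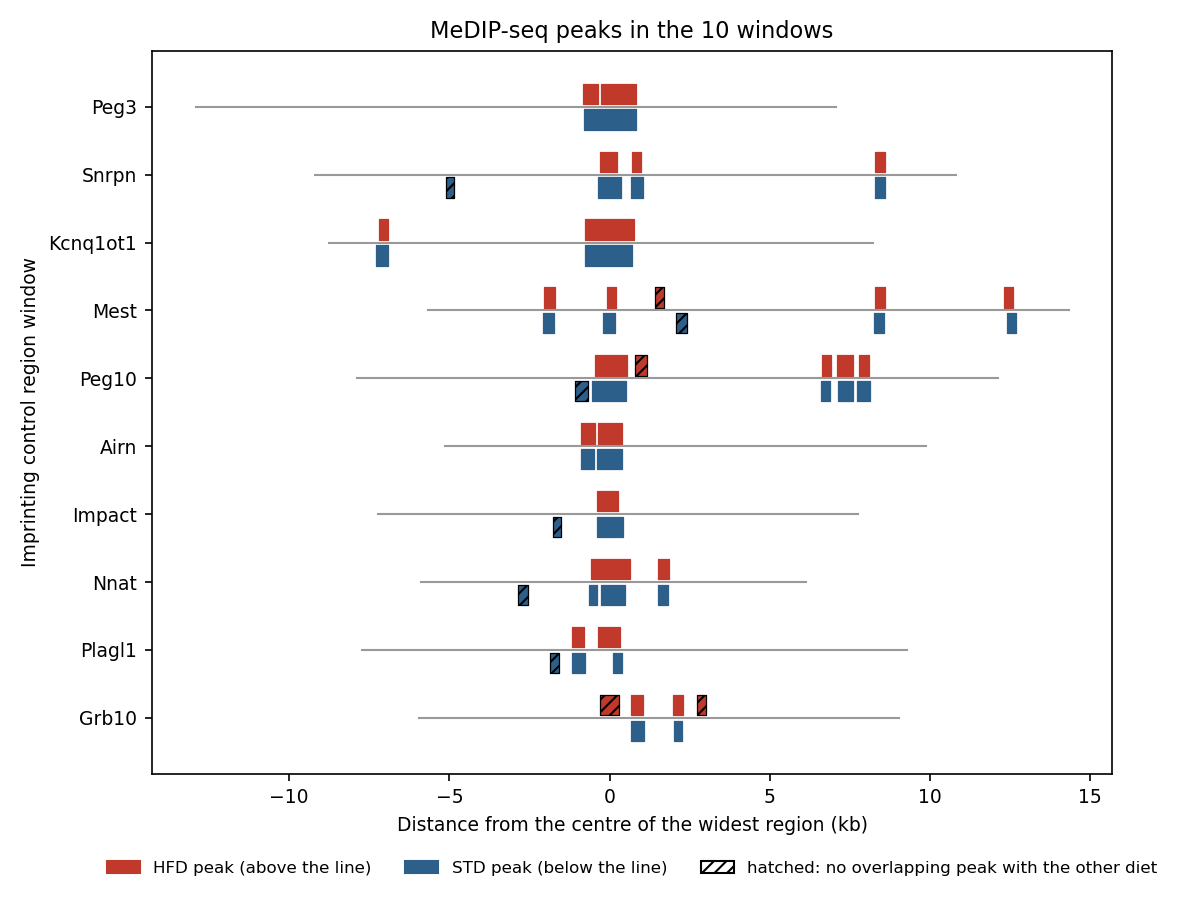
Positions of HFD peaks (red, above each line) and STD peaks (blue, below) in the 10 windows, drawn as distance in kb from the centre of the widest region of each window; grey lines are the windows and hatched peaks have no overlapping peak with the other diet. In every window except Grb10 the widest region is drawn in both colours, and the 4 hatched HFD peaks and 6 hatched STD peaks are spread over 7 windows.

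**Figure D2:**
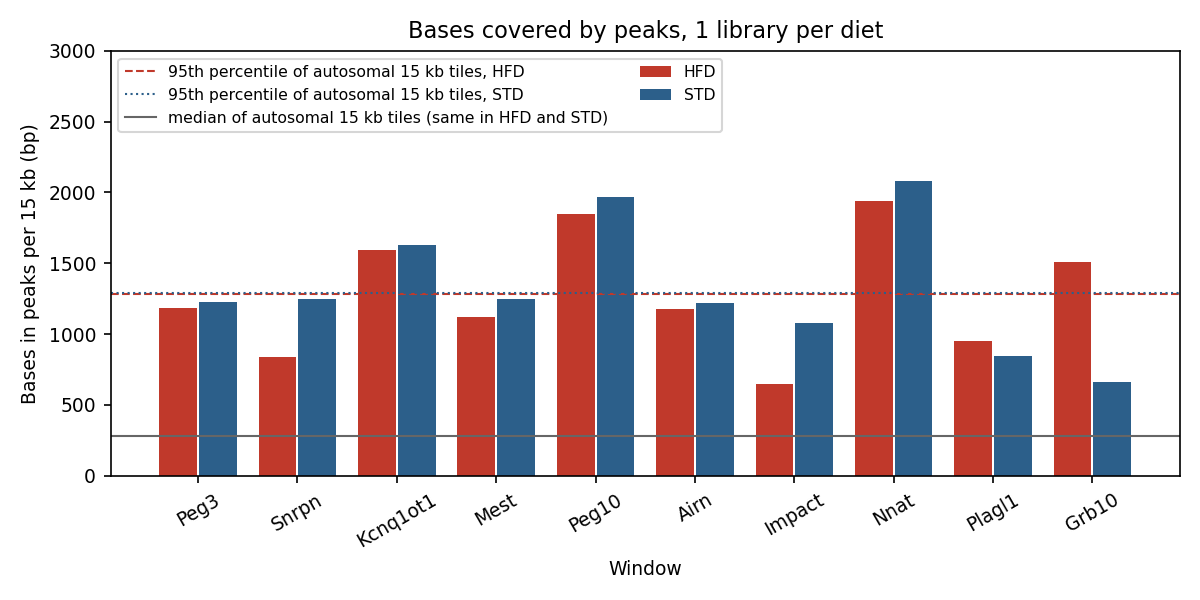
Bases covered by peaks per 15 kb of each window, HFD bars left of STD bars, with lines at the median and 95th percentile of all autosomal 15 kb tiles. All bars stand above the tile median of 280 bp, and Grb10 is the window where HFD exceeds STD by the largest factor.

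Peaks of both libraries were joined into clusters across gaps of up to 1 kb. Peg3, Airn, Plagl1 and Grb10 had a single cluster each, and the other windows had more than 1. When overlapping HFD and STD peaks were merged, the windows contained 33 separate regions, of which 23 (69.7%) had a peak from each library. HFD peaks alone made up 4 of them and STD peaks alone 6. Over the genome 55.6% of 218985 regions had peaks from both. The median width of the window regions was 384 bp, and that of all regions of the genome 340 bp. The widest region of each window had a median width of 809 bp and ranged from 417 bp at Mest to 1663 bp at Peg3. The widest region per autosomal tile of 15 kb, over 102006 tiles with a region, had a median of 395 bp, a 95th percentile of 734 bp and a 99th percentile of 982 bp. The windows are 12 to 20 kb long, and this comparison was not scaled for length. The widest region was above the 95th percentile of the tiles in 7 of the 10 windows, and above the 99th in 4 of them, Peg3, Kcnq1ot1, Peg10 and Nnat. As wide a region was held by 42.8% of tiles for Mest, 13.8% for Grb10 and 6.64% for Snrpn, so these 3 windows did not stand out in this way.

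The density of peaks in each window was set beside that of its surroundings. It was higher in the window than in the 100 kb on each side in 8 of 10 windows with HFD and in 8 of 10 with STD. The same comparison was not made for other tiles, so whether this share is unusual was not tested. Autosomal tiles of 15 kb held a mean of 1.09 peaks with HFD and 1.03 with STD. Scaled to 15 kb, Impact with HFD (1) and Peg3 with STD (0.75) lay below these means, and all other window values lay above. Snrpn stood in the emptiest surroundings. Its window had 2.25 HFD and 3 STD peaks per 15 kb, and its flanks had 0.075 and 0.225. At Grb10 the window had 4 HFD and 2 STD peaks per 15 kb and the flanks had 0.75 in both libraries. Airn was the window with no contrast in either library, with 2 peaks per 15 kb inside and 2.02 in the flanks. The other exceptions were Impact with HFD, at 1 inside and 1.5 in the flanks, and Peg3 with STD, at 0.75 inside and 1.35 in the flanks. At Peg3 the single STD peak was the widest of all the window peaks, so a low number of peaks there did not mean little covered sequence.

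**Figure D3:**
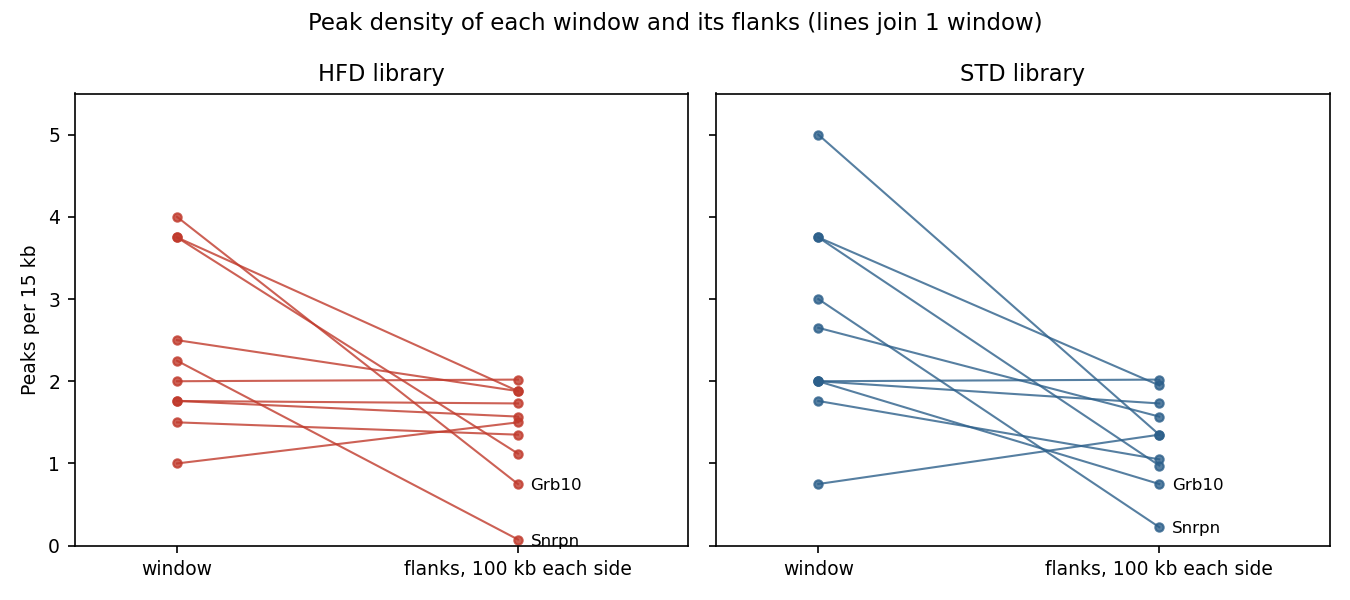
Peaks per 15 kb in each window (left end of each line) and in its flanks of 100 kb on each side (right end), for the HFD library and the STD library. Of the 10 lines, 8 fall from window to flank in each library, most steeply for Grb10 with HFD and for Nnat with STD, and the Snrpn flanks are the emptiest.

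The non-coding RNAs were described first. Kcnq1ot1 is a long RNA transcribed from the paternal chromosome that silences neighbouring genes in cis, among them Cdkn1c. Its window had a peak among the broadest of both lists. On chromosome 7 the HFD peak spanned 1533 bp, from 150481007 to 150482539, a width reached by 0.0119% of HFD peaks. Its STD partner from 150480996 to 150482459 was 1464 bp wide, a width reached by 0.0204% of STD peaks. Between the libraries this peak differed by 69 bp, and their midpoints lay 45.5 bp apart. A second, narrow peak in this window was 273 bp with HFD and 384 bp with STD. Airn, the RNA that silences the growth factor receptor gene Igf2r on the paternal chromosome, had the same pair of neighbouring peaks in both libraries. They were 431 and 745 bp wide with HFD, and 419 and 804 bp with STD, on chromosome 17 between 12934231 and 12935537. The bases covered in both libraries made up 0.921 of those covered in either at Airn and 0.895 at Kcnq1ot1, where 1 would be identical coverage.

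Peg3, a zinc-finger protein gene, carried a single methylated stretch on chromosome 7 from 6682093 to 6683755. The HFD list gave it as 2 peaks of 467 and 1110 bp, and the STD list as a single peak of 1632 bp, a width reached by 0.00961% of STD peaks. The HFD peaks end at 6682559 and begin again at 6682646. Covered sequence came to 1577 bp with HFD and 1632 bp with STD, and the agreement of the 2 libraries was the highest of the 10 windows (0.93 of the bases in either). The number of peaks thus differed here where the covered sequence hardly did.

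Nnat, which encodes a small membrane proteolipid, showed the same kind of split in the other library. On chromosome 2 the HFD peak spanned 1222 bp, from 157385304 to 157386525. In the STD list the stretch was divided into peaks of 268 and 764 bp. A nearby narrow peak was 330 bp with HFD and 323 bp with STD. A further STD peak of 308 bp, from 157383027 to 157383334, stood alone, at 1.97 kb from the closest HFD peak. In total 1552 bp were covered with HFD and 1663 bp with STD.

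Peg10, a gene derived from a retrotransposon and needed in the placenta, had 2461 bp of covered sequence with HFD and 2628 bp with STD, in a window of 20 kb. As a share of the window this was 12.3% with HFD and 13.1% with STD, next to 12.9% and 13.9% at the shorter Nnat window. Its peaks formed 2 clusters. The first centred on a broad peak on chromosome 6, 1001 bp wide from 4697422 to 4698422 with HFD and 1059 bp wide from 4697346 to 4698404 with STD. On either side of it each library had a peak that the other lacked. With HFD this was a peak of 361 bp from 4698690 to 4699050, 0.285 kb from the nearest STD peak. With STD it was a peak of 402 bp from 4696805 to 4697206, 0.215 kb from the nearest HFD peak. The cluster reached further to the right with HFD and further to the left with STD. The second cluster, between 4704469 and 4706016, consisted of 3 peaks that were present in both libraries, of 278, 485 and 336 bp with HFD and 306, 466 and 395 bp with STD.

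Snrpn encodes a splicing protein of neurons, and its control region is the mouse counterpart of the Prader-Willi imprinting centre. Its pair of central peaks was narrower with HFD. The first was 532 bp with HFD, from 67148895 to 67149426, and 695 bp with STD, from 67148841 to 67149535, a difference of -163 bp. The second was 288 bp with HFD and 377 bp with STD, a difference of -89 bp. The outer peak was nearly the same, 303 bp with HFD and 319 bp with STD. The STD library had another peak of 272 bp, from 67144068 to 67144339, with no HFD peak within 4.55 kb. All HFD coverage of this window lay inside STD coverage, with 1123 bp covered with HFD and 1663 bp with STD, a ratio of 0.675.

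Impact encodes a regulator of translation that restrains the kinase GCN2, and its window showed the lowest HFD over STD ratio of covered bases, 0.604. Its main peak on chromosome 18 was 650 bp with HFD, from 13131856 to 13132505, and 814 bp with STD, from 13131837 to 13132650. The HFD peak lay wholly inside the STD peak. The STD list had a further peak of 263 bp, exactly the narrowest width of that list, 1.13 kb from the nearest HFD peak. Covered sequence was 650 bp with HFD and 1077 bp with STD.

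Mest, a gene of the hydrolase family whose expression is known to follow fat mass expansion in mice, had the narrowest peaks of the 10 windows at their widest. Its 5 HFD peaks were 273 to 337 bp wide and its 5 STD peaks 272 to 375 bp. In both libraries 4 of the 5 had a partner. The remaining ones lay next to each other, an HFD peak of 293 bp from 30687073 to 30687365 and an STD peak of 360 bp from 30687730 to 30688089, 0.364 kb apart. Covered sequence was 1494 bp with HFD and 1665 bp with STD, of which 1028 bp were common, 0.482 of the bases in either.

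Plagl1, which encodes the zinc-finger transcription factor ZAC1, was one of 2 windows with more covered sequence with HFD. On chromosome 10 an HFD peak spanned 712 bp, from 12810342 to 12811053. Its STD partner from 12810810 to 12811089 was 280 bp wide and lay at the right end of it. This difference of 432 bp was the largest among the 21 window pairs in which each peak had exactly 1 partner, and 0.302% of all such pairs in the genome differed by as much in either direction. The neighbouring peak was 366 bp with HFD and 394 bp with STD. To its left the STD list had a peak of 284 bp, from 12808863 to 12809146, that had no HFD partner. The window total was 1078 bp with HFD and 958 bp with STD.

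Grb10, the adaptor that dampens signalling from the insulin and IGF1 receptors, had the largest HFD over STD ratio of covered bases. The HFD list held 4 peaks on chromosome 11, of 589, 354, 308 and 260 bp, and the STD list 2 peaks, of 402 and 263 bp. The 354 and 308 bp HFD peaks were partners of the STD peaks. The other HFD peaks lay outside them on either side, from 11925656 to 11926244 and from 11928691 to 11928950, at 0.373 and 0.477 kb from the nearest STD peak. Covered sequence was 1511 bp with HFD and 665 bp with STD, a ratio of 2.27. The 589 bp peak was the widest region of the window, and 5.03% of HFD peaks were at least as wide, whereas the 260 bp peak was 5 bp above the narrowest HFD peak.

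**Figure D4:**
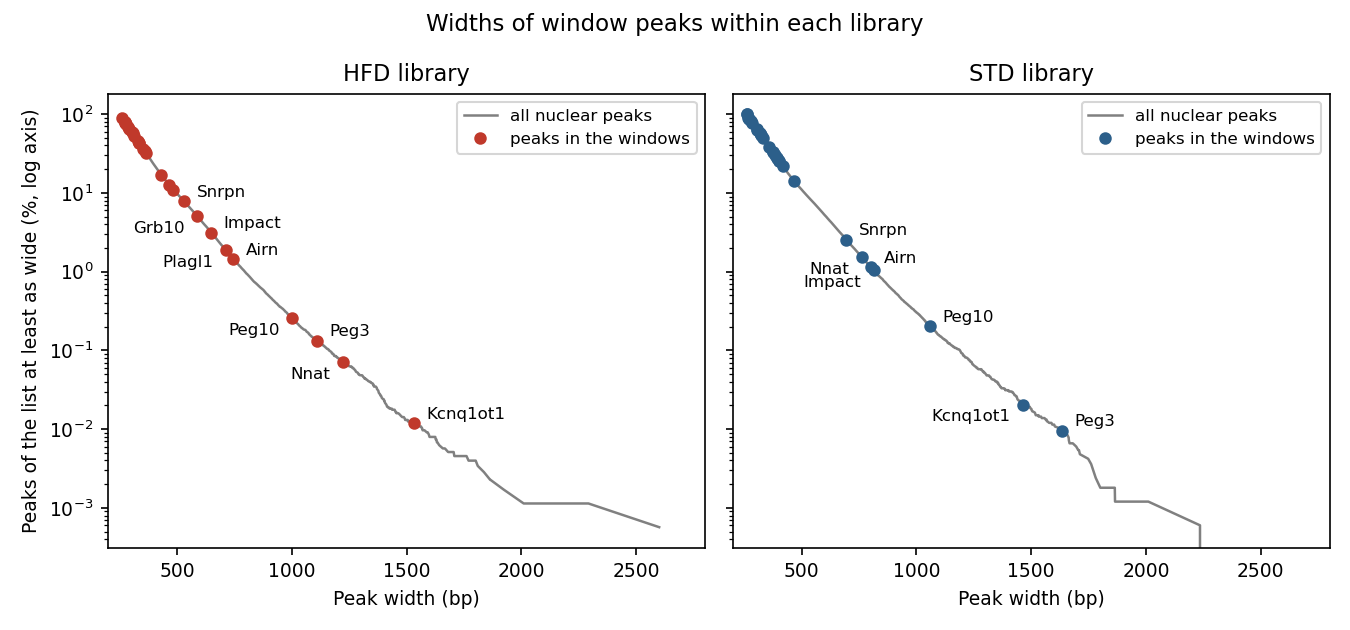
Width of each window peak (x axis, bp) against the percentage of its own library's peaks that were at least as wide (log axis), for HFD and STD, with the curve of all nuclear peaks and labels on the widest peak of each window above 500 bp. Kcnq1ot1 in the HFD library and Peg3 and Kcnq1ot1 in the STD library lie farthest along the curve, while Mest has no labelled peak in either.

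Peaks of 800 bp or more were found in 4 windows with HFD and in 5 with STD. They were at Peg3, Kcnq1ot1, Peg10 and Nnat with HFD, and at Peg3, Kcnq1ot1, Peg10, Airn and Impact with STD, 4 of 28 peaks (14.3%) and 5 of 30 peaks (16.7%). Such peaks made up 0.965% of all HFD peaks and 1.16% of all STD peaks. The Airn and Impact peaks passed this limit narrowly with STD, at 804 and 814 bp, and the HFD partners were 745 and 650 bp. The Nnat stretch was split in the STD list. A limit on width therefore placed 3 of these windows on different sides in the 2 libraries, although each had an overlapping peak in both. The median width of all window peaks was 357.5 bp with HFD and 376 bp with STD, against 321 bp and 332 bp for all peaks of these libraries.

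The diets were compared over all 10 windows by asking which peaks had a partner, an overlapping peak of at least 1 bp in the other list. Of the HFD peaks, 4 of 28 had no STD partner, and of the STD peaks, 6 of 30 had no HFD partner. Over all nuclear peaks 30.3% of HFD peaks and 26.5% of STD peaks had none. The share with a partner in the windows was 85.7% for HFD (exact 95% binomial interval 67.3 to 96.0) and 80.0% for STD (61.4 to 92.3). The shares over all nuclear peaks were 69.7% and 73.5%. Both of these lie within the intervals, which are wide with so few peaks. The intervals cover counting error only and treat peaks of the same window as independent. Whether the windows differ from the rest of the genome was therefore not tested. The HFD-only peaks were at Mest and Peg10, with 1 each, and Grb10, with 2. The STD-only peaks were at Snrpn, Mest, Peg10, Impact, Nnat and Plagl1.

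The number of peaks was higher with HFD in 2 windows, Peg3 and Grb10, lower in 4 and equal in 4. How often other tiles had more, fewer or equal peaks was not computed, so these counts have no level beside them. Covered sequence in the windows summed to 14428 bp with HFD and 15022 bp with STD, and 11760 bp were common to both. The common part was 0.665 of the 17690 bp covered in either, and by window it ran from 0.396 at Grb10 to 0.93 at Peg3. Covered sequence was lower with HFD in 8 of 10 windows and higher at Plagl1 and Grb10. The differences were small at Kcnq1ot1 (-42 bp), Airn (-47 bp) and Peg3 (-55 bp). Of the autosomal tiles with at least as much covered sequence as the sparsest window, 51.5% were also lower with HFD. The median ratio of HFD over STD was 0.949 in the windows and 0.991 in those tiles, where the quartiles were 0.828 and 1.21.

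These ratios were set beside those of the autosomal tiles to show how much the libraries differed elsewhere. A difference of at least 1.5 times was seen in 2 windows: Grb10 was higher with HFD and Impact lower. Among the 102900 tiles with a peak in either list, 24.4% were higher with HFD by this measure and 20.5% lower. Most such tiles hold little covered sequence. Among the 24115 tiles with at least as much covered sequence over both libraries as the sparsest window (1730 bp), 8.85% were higher with HFD and 9.2% lower. The 5th and 95th percentiles of the ratio in those tiles were 0.587 and 1.69. Grb10, at 2.27, was above this range, and the other 9 windows were inside it. With a single window in each direction, the windows differed between the libraries about as often as other tiles did.

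Widths of partner peaks were compared where each peak had exactly 1 partner, which held for 21 pairs in 9 windows, Peg3 having none. The HFD peak was the narrower in 13 pairs (61.9%) and the wider in 8. Over all 120322 such pairs of the genome it was narrower in 56.0%, where widths started at 255 bp (HFD) and 263 bp (STD). The median difference of HFD minus STD was -28 bp in the windows and -8 bp over the genome, where the quartiles were -49 and 32 bp. Of the 21 pairs, 10 lay within these quartiles. Outside the 5th to 95th percentile of the genome (-144 to 130 bp) were 3 pairs: the main peaks of Snrpn (-163 bp) and Impact (-164 bp), and the Plagl1 peak (432 bp). The spread was larger among wide peaks. For the 14410 pairs with a mean width of at least 500 bp, a limit added after seeing the data, the 5th and 95th percentiles were -284 and 247 bp. The Snrpn and Impact differences lay within them. The Plagl1 pair, of 712 and 280 bp, fell just below this limit of mean width, and its difference was above 247 bp. Midpoints of the pairs in the windows lay a median of 25 bp apart, and 24 bp over the genome.

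**Figure D5:**
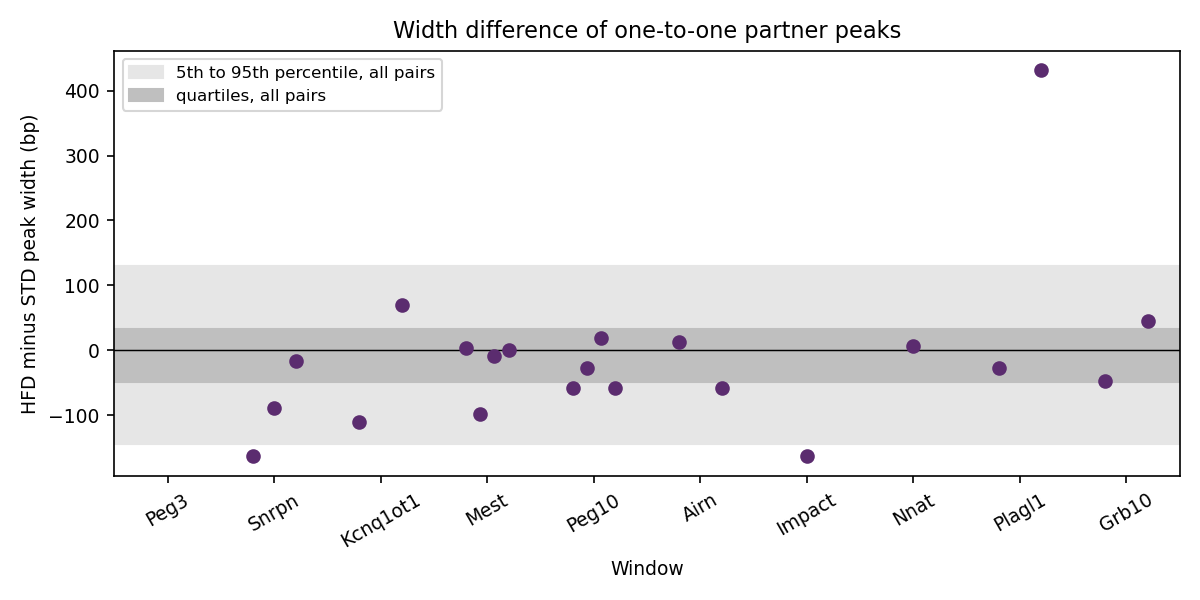
HFD minus STD width in bp of the 21 one-to-one partner peaks, by window, over bands for the quartiles (dark grey) and the 5th to 95th percentile (light grey) of all such pairs in the genome. Points at Snrpn, Impact and Plagl1 fall outside the light band, which for pairs of at least 500 bp would reach from -284 to 247 bp, and Peg3 has no point because its STD peak overlapped 2 HFD peaks.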

How the data were processed

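MeDIP-seq peaks of epididymal fat were analysed in 2 libraries, 1 per diet, grouped by the diet in the labels. Per the submitters' processing notes, the aligner was BWA and the genome mm9. Which program called the peaks, and against what control, is not given in the sources used here. For each library the authors deposited 1 list with the start and end position of each peak and no score. Only peaks of chromosomes 1 to 19, X and Y entered the analysis, which left out 6 peaks per library. Positions count from 1.

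The 10 windows, the gene lists, the fold of 1.5 and the width of 800 bp were chosen with earlier results of these data known. The widest region per tile and the pairs of at least 500 bp were added after seeing the data. All 10 members are named, and all peaks without a partner. Tiles of 15 kb ran over each autosome from the tile of its first peak to that of its last. Peaks were clustered across gaps of up to 1 kb. Intervals are exact 95% binomial (Clopper-Pearson). Software was pandas 2.3.3, numpy 2.4.6, matplotlib 3.10.9 and scipy 1.17.1 under Python 3.11.15, and the overlap functions were tested on simulated data. Alternatives were other overlap rules, peaks of at least 300 bp, equal numbers of peaks, windows widened by 10 kb and leaving out each window.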

Additional observations from a re-analysis of the deposited data

How the results depend on the processing

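Of 32 recomputed values, the 3 with equal numbers of peaks could not change, since that alternative removed only HFD peaks of 255 bp and the windows hold none of that width. Of the other 29, 28 stayed within the counting interval of the reported value, or within 1.5 times of it for the number of windows. The exception was the share of HFD peaks with a partner, 85.7%, which was 100% when an STD peak within 500 bp counted as a partner. The corresponding share of STD peaks was then 90.0%. Staying within the interval is a weak check, because the intervals are wide. For the number of windows, leaving out or widening windows could not have given a window without a peak in both libraries. The number of HFD peaks over STD peaks, 0.933, ranged from 0.857 without Grb10 to 1.0 without Nnat, and was 0.904 in windows widened by 10 kb. The ratio of covered bases, 0.960, ranged from 0.90 without Grb10 to 0.996 without Snrpn. It was judged by the interval of the ratio of peak number, 0.537 to 1.62, because bases have no counting error of their own. All windows that were kept had a peak in both libraries under each alternative. No paired analysis was possible because a single library stands for each diet, and for the same reason leaving out replicates was not possible. Where a peak is missing, the unknown depth does not allow methylation to be called absent.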
